A study of Mus musculus with 8 samples.

Results

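The 10 genes described here form the core of the circadian clock or are read out directly from it. They are the activators Npas2, Arntl and Clock, the repressors Per1, Per2, Per3, Cry1 and Cry2, and the output factors Dbp and Tef. They were picked by gene symbol from an isoform table of 24356 symbols, in which all 10 were present with 17 of the 34535 isoforms. The table compares adipocyte precursors (APs), the sorted mesenchymal cells of the dermis from which fat cells arise, in 2 samples of day 5 wound bed and 6 samples of nonwounded dorsal skin. All 8 samples came from 7-week-old male C57/Bl6 mice, and the labels name no transgene and no treatment other than the wound. The labels give neither the hour at which skin was collected nor whether samples came from separate animals. The variation among these samples may therefore be technical, and no p-value can be taken to cover variation among animals.

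The mammalian clock is a feedback loop of transcription. A heterodimer of BMAL1 (encoded by Arntl) with CLOCK or its paralog NPAS2 binds E-box elements and switches on the Per and Cry genes, whose proteins then inhibit the same heterodimer until they are degraded. DBP and TEF belong to the PAR bZIP family, are themselves driven through E-boxes, and activate genes with D-box elements. In fat, skin and most other tissues the transcripts of these genes rise and fall daily, with the Arntl phase roughly opposite to that of the Per and Dbp transcripts. Per1 is also known as a gene induced by glucocorticoids.

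The start regions of Per1, Per3 and Tef, the genes that fell, and of Cry1 are shown first, because they hold letters of the elements through which the loop works. The sequences are from RefSeq on GRCm38.p6, which held 14 windows, each of 250 bases before to 50 bases after a start, for 9 of the 10 genes, and none for Per2. The motifs searched on both strands were the E-box CACGTG, the D-box TTATGCAA, TTATGTAA or TTACGTAA, the ROR element TAGGTCA, the cAMP response element TGACGTCA and its short form TGACGT, which lies inside the full element. Below are the 250 bases before the start of Per1 (chr11:69098699-69098948, plus strand) and of Per3 (chr4:151044666-151044915, minus strand), with E-boxes and D-boxes in capitals.
Per1: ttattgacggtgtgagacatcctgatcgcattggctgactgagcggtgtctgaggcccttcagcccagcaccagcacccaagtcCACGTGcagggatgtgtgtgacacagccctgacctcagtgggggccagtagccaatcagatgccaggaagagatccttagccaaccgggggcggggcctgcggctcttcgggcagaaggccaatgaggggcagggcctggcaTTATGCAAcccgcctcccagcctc
Per3: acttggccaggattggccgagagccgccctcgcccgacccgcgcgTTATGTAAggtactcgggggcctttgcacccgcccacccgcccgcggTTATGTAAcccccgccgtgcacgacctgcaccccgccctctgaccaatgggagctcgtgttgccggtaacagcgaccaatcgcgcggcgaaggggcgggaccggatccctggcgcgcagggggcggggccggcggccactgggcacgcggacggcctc

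Per1 held an E-box 166 bases and a D-box 24 bases before the start, and Per3 held D-boxes 205 and 158 bases before it. Tef has a window at each of 2 RefSeq starts, and each held an E-box, 127 and 138 bases before the start. GENCODE M21 puts the upstream Tef start at 81802421, and by that start the upstream E-box lies after it. The E-box of Cry1 lay 60 bases before the start. These 3 sites are given with 12 bases on each side and the E-box in capitals, at chr15:81802534-81802563 and chr15:81811264-81811293 (both plus strand) for Tef and chr10:85185097-85185126 (minus strand) for Cry1.
Tef, upstream start: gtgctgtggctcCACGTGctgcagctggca
Tef, downstream start: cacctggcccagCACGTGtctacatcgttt
Cry1: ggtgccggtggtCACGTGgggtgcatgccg

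An E-box was present in 4 of the 14 windows, against 7.15% of 32851 windows of the same length over all genes, and a D-box in 2 of 14, against 1.78%. A ROR element was found in 1 window, that of Arntl, 31 bases after a start (2.61% of all windows), and the short cAMP response element in 1 window, at the second Per1 start (7.51% of all windows). The full element was in none of the 14 (1.79% of all windows). The windows of Npas2, Dbp, Clock and Cry2 held none of these letters. The Clock windows lie at starts 76304792, 76304548 and 76303502. GENCODE M21 puts the start of the major Clock isoform at 76274012, which no window covered, so that start was not searched. Some windows of 1 gene overlap, so they are not independent, and a match to letters is not a binding site.

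Of the 10 genes, Npas2 was higher in wound bed APs and Per1, Per3 and Tef were lower, while Arntl, Clock, Per2, Cry1, Cry2 and Dbp did not pass the test. The values are group FPKM, fragments scaled to transcript length and library size, given by the authors as a single estimate per group, so no spread over samples can be shown and the sequencing depth is unknown. Each gene is represented by its major isoform, the tested isoform whose 2 group values add up to most, and a change was called where the Benjamini-Hochberg adjusted p, computed over all 17775 tested isoforms from the authors' deposited p-values, was under 0.05. Where an adjusted p is given as from the authors' deposited table, the p-value is theirs and the adjustment was computed here. All 10 major isoforms were tested and reached 1 FPKM in at least 1 group. Called genes were 4 of 10, with 1 higher and 3 lower, against 16.1% of the 12960 major isoforms that reached this level (7.39% called higher and 8.7% called lower). Among the 9626 whose larger group value lay from 1 to under 20 FPKM, the band that holds all 10 genes, 12.5% were called. The 10 genes were chosen with earlier results of the comparison known, so these shares are a description and no test of the set is given.

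**Figure D1:**
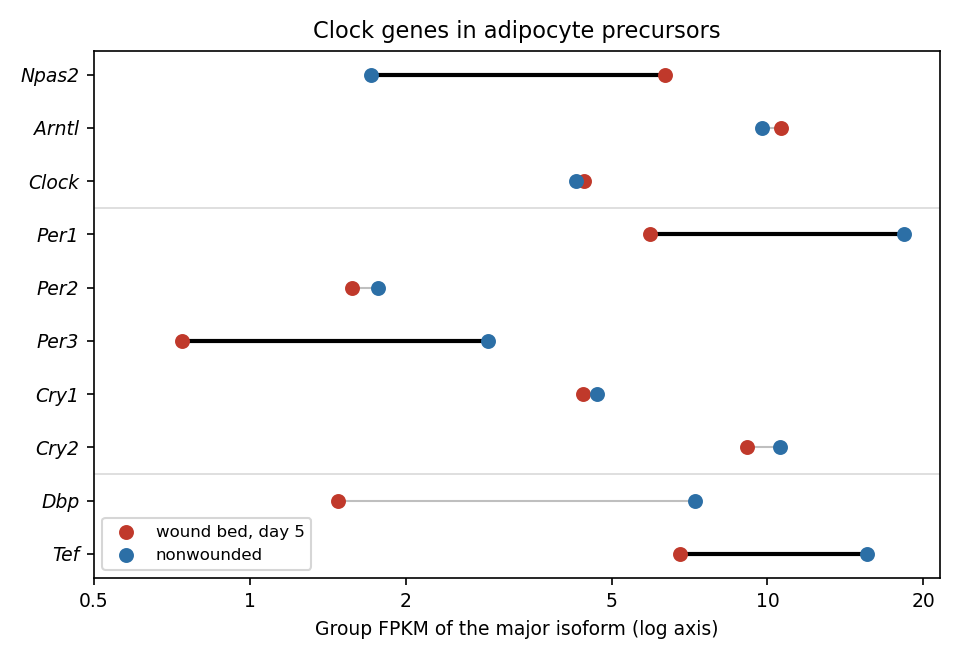
Group FPKM of the major isoform (horizontal log axis) of the 10 clock genes (rows, activators above, then repressors, then outputs) in wound bed APs (red) and nonwounded APs (blue), joined by a thick black line where the difference was called and a thin grey line where it was not. Npas2 lies at 6.33 in the wound bed against 1.71 in nonwounded skin, Per1 at 5.92 against 18.3, and the points of Arntl, Clock, Cry1, Cry2 and Per2 lie close together.

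Among the activators, Npas2 rose, and Arntl and Clock did not pass the test. The single Npas2 isoform (NM_008719, chromosome 1 from 39194272 to 39363240) stood at 6.33 FPKM in wound bed APs and 1.71 FPKM in nonwounded APs. It rose 3.70-fold, a log2 fold change of 1.89 with an adjusted p of 0.00306 from the authors' deposited table, and the change exceeded that of 93.8% of the major isoforms that reached 1 FPKM. Arntl, the gene of the shared partner BMAL1, stood at 10.6 FPKM in wound bed APs and 9.76 FPKM in nonwounded APs, a log2 fold change of 0.12 (adjusted p = 0.823 from the authors' deposited table). Clock stood at 4.41 FPKM in wound bed APs and 4.27 FPKM in nonwounded APs, a log2 fold change of 0.05 (adjusted p = 0.935 from the authors' deposited table). With no spread over samples, no interval can be put on these small differences.

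NPAS2 and CLOCK are alternative partners of BMAL1, and their transcripts stood in a different proportion in the 2 groups. Summed over isoforms, Npas2 amounted to 0.987 times Clock in wound bed APs and 0.296 times Clock in nonwounded APs. By major isoform, which leaves out part of Clock, Npas2 was the lowest of the 10 genes in nonwounded APs and the fourth in the wound bed. Summed over isoforms, Clock (6.42 FPKM) lay just above Npas2 (6.33 FPKM) in wound bed APs. The ratio of Npas2 to Clock FPKM carries no test.

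Among the repressors, Per1 and Per3 fell and the other 3 did not pass the test. Per1, the most abundant of the 10 in nonwounded APs, stood at 5.92 FPKM in wound bed APs and 18.3 FPKM in nonwounded APs. Its log2 fold change was -1.63, with an adjusted p of 0.000882, and its p of 5e-05 is the smallest that the authors' deposited table gives. The Per1 locus lies on chromosome 11 from 69098956 to 69109957, and the isoform called is the one that starts at the window printed above.

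Per3, whose product is regarded as less essential to the rhythm than those of Per1 and Per2, stood at 0.741 FPKM in wound bed APs and 2.88 FPKM in nonwounded APs. Its log2 fold change was -1.96 with an adjusted p of 0.0371 from the authors' deposited table, and the call was lost at an adjusted p under 0.01. The sum over its 3 isoforms gave -1.65, and a pseudocount of 1 FPKM in both groups, which understates changes of low genes, gave -1.16. Its level in the wound bed was the lowest of the 10 genes. The locus lies on chromosome 4 from 151003655 to 151044665.

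Per2, a main negative element of the loop, stood at 1.57 FPKM in wound bed APs and 1.77 FPKM in nonwounded APs, a log2 fold change of -0.17 (adjusted p = 0.810 from the authors' deposited table). Cry1 and Cry2 encode the cryptochromes, the repressors that bind the activating heterodimer together with PER proteins. Cry1 stood at 4.41 FPKM in wound bed APs and 4.68 FPKM in nonwounded APs, a log2 fold change of -0.08 (adjusted p = 0.894 from the authors' deposited table). Cry2 stood at 9.14 FPKM in wound bed APs and 10.6 FPKM in nonwounded APs, a log2 fold change of -0.21 (adjusted p = 0.632 from the authors' deposited table). Neither was called, and whether the Per1 change differs from that of Per2 or of the Cry genes was not tested. Cry2 shares its read bundle with 1 other gene, D930015M05Rik.

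The output factors had lower values in the wound bed, and Tef was the one called. Tef stood at 6.77 FPKM in wound bed APs and 15.6 FPKM in nonwounded APs, a log2 fold change of -1.20 with an adjusted p of 0.00239 from the authors' deposited table. Dbp stood at 1.48 FPKM in wound bed APs and 7.24 FPKM in nonwounded APs. Its log2 fold change of -2.29 was larger in size than that of any called member, but its p of 0.0357 in the authors' deposited table gave an adjusted p of 0.151 and no call. Dbp shares its read bundle (chromosome 7 from 45705247 to 45718002) with the neighbouring gene Sphk2, and the labels do not say whether strand was used in the counting. The Tef locus lies on chromosome 15 from 81802673 to 81826863 and holds no other gene of the table.

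**Figure D2:**
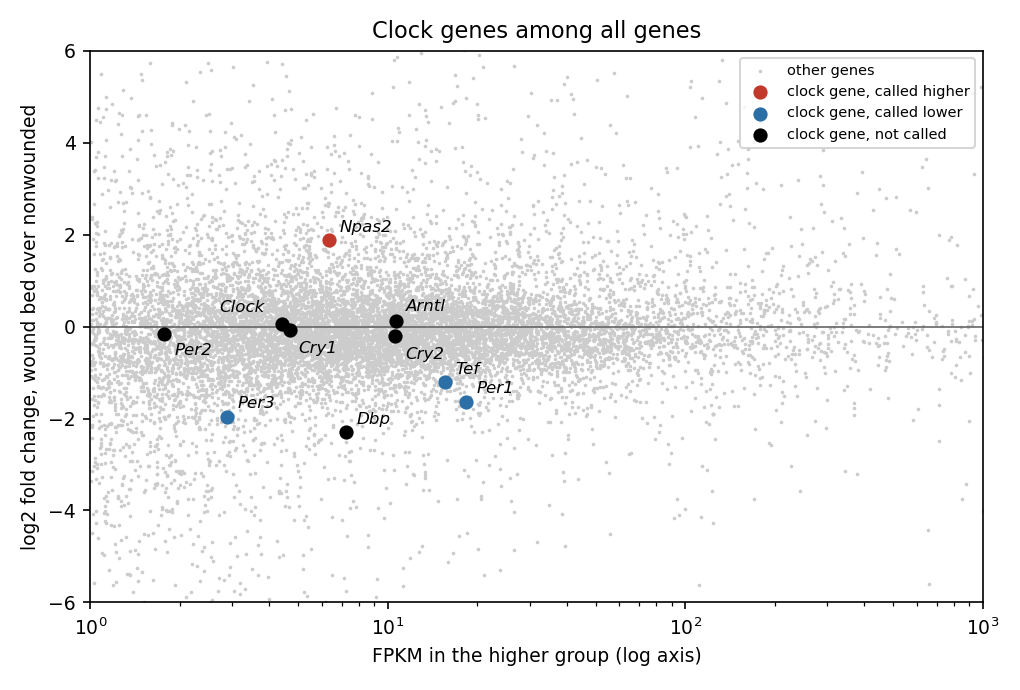
Log2 fold change, wound bed over nonwounded (vertical axis), against the FPKM in the higher group (horizontal log axis) for major isoforms that reached 1 FPKM and were above 0 in both groups, grey for other genes and coloured for the 10 clock genes. Points beyond the axes are not drawn. Npas2 (1.89) lies in the upper part of the cloud, and Dbp (-2.29), Per3 (-1.96), Per1 (-1.63) and Tef (-1.20) lie in the lower part of the cloud.

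The order of the levels differed between the groups. In wound bed APs it ran Arntl, Cry2, Tef, Npas2, Per1, Clock, Cry1, Per2, Dbp and Per3. In nonwounded APs it ran Per1, Tef, Cry2, Arntl, Dbp, Cry1, Clock, Per3, Per2 and Npas2. Neighbours in either order cannot be separated, since there is no spread over samples. Among the major isoforms that reached 1 FPKM in either group, 65.3% lay below Arntl in the wound bed and 76.6% lay below Per1 in nonwounded APs.

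Summed over isoforms and genes, the 3 activators came to 26.7 FPKM in wound bed APs and 19.3 FPKM in nonwounded APs. The 5 Per and Cry genes together came to 22.1 FPKM in wound bed APs and 38.5 FPKM in nonwounded APs. Repressor transcripts thus amounted to 0.828 times the activator transcripts in wound bed APs and 2.0 times in nonwounded APs. Much of this came from Per1 (5.97 FPKM in wound bed APs and 18.4 FPKM in nonwounded APs) and Npas2 (6.33 and 1.71 FPKM). By major isoform 3 of the 5 repressors and 2 of the 3 activators were not called. The ratio was not tested. Within the repressors, the Per genes summed to 8.52 FPKM in wound bed APs and 23.3 FPKM in nonwounded APs, and the Cry genes to 13.6 FPKM in wound bed APs and 15.2 FPKM in nonwounded APs. The median log2 fold change of the 10 genes was -0.19, beside -0.13 for all major isoforms that reached 1 FPKM, and 7 of the 10 values were below 0 and 3 above.

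Of the 17 isoforms, 13 were tested and 4 were not. The 4 calls all belonged to major isoforms, and none of the 3 tested minor isoforms was called, beside 12.9% of all 17775 tested isoforms. For Per1 the second isoform (NM_001159367), which starts further downstream, made up 0.707% of the Per1 sum in wound bed APs and 0.60% in nonwounded APs. The second Tef isoform (NM_017376), which starts at the downstream start whose E-box is shown above, stood at 0.0218 FPKM in wound bed APs and 1.58 FPKM in nonwounded APs, or 0.320% of the Tef sum in wound bed APs and 9.18% of it in nonwounded APs. It was not called (adjusted p = 0.436 from the authors' deposited table). The Per3 isoform NM_001289877 was not tested and stood at 0.238 FPKM in wound bed APs and 0.186 FPKM in nonwounded APs. It made up 24.3% of the Per3 sum in wound bed APs and 6.06% of it in nonwounded APs. The Per3 isoform NM_001289878, also not tested, stood at 4.93e-05 FPKM in wound bed APs and 7.93e-06 FPKM in nonwounded APs.

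The second Arntl isoform (NM_001243048) stood at 3.28 FPKM in wound bed APs and 1.98 FPKM in nonwounded APs and was not called. It made up 23.6% of the Arntl sum in wound bed APs and 16.9% of it in nonwounded APs. Of Clock, the isoform NM_001289826 stood at 2.0 FPKM in wound bed APs and 1.14 FPKM in nonwounded APs without a call. The isoform NM_007715 of Clock was not tested and stood at 0.00252 FPKM in wound bed APs and 0.383 FPKM in nonwounded APs. The Clock bundle spans 4 other genes of the table, Tmem165, Pdcl2, Nmu and Mir1191.

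**Figure D3:**
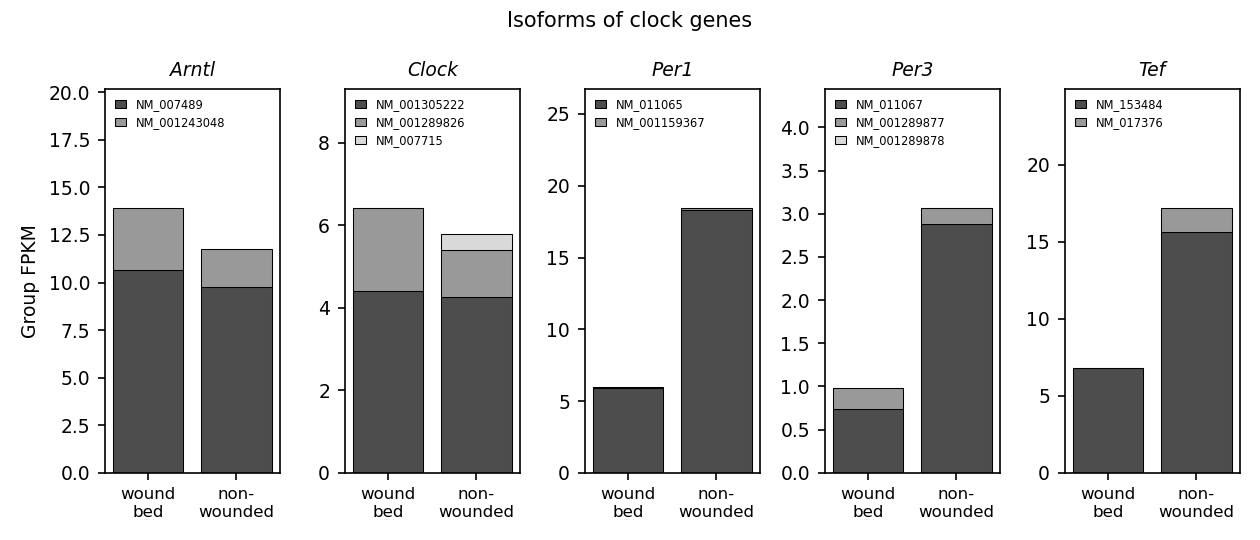
Group FPKM of each isoform (stacked, shades of grey, darkest for the major isoform) of the 5 clock genes with more than 1 isoform, the left bar of each pair for wound bed APs and the right bar for nonwounded APs. The vertical axes start at 0 and differ between genes. The major isoform makes up nearly all of Per1 in both groups (5.92 against 18.3 FPKM), and the second isoform of Tef is seen in nonwounded APs.

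The wider clock was followed in 35 further genes, of which 29 had a tested major isoform that reached 1 FPKM. Of these 4 were called higher and 1 lower, which is 5 of 29 beside the 16.1% over all genes, and the median log2 fold change was -0.06. The calls were the repressor Bhlhe40, the D-box repressor Nfil3, the ubiquitin ligase Siah2 and the cell cycle inhibitor Cdkn1a, all higher, and Tsc22d3, lower. The share called was close to the background.

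The secondary loop consists of the REV-ERB repressors and the ROR activators, which compete at the ROR element and set the level of Arntl. Of 4 counted genes, none was called by the adjusted p, beside 16.1% over all genes. A list of 4 genes is too small to be set apart from that share. Of the 4, 1 (Rorb) had an unadjusted p under 0.05 in the authors' deposited table, as had 4857 of all 17775 tested isoforms. Nr1d1, which encodes REV-ERB alpha, stood at 11.5 FPKM in wound bed APs and 17.2 FPKM in nonwounded APs, a log2 fold change of -0.59 (adjusted p = 0.193 from the authors' deposited table). Nr1d2, its paralog, stood at 8.60 FPKM in wound bed APs and 9.89 FPKM in nonwounded APs. Rora stood at 4.50 FPKM in wound bed APs and 4.14 FPKM in nonwounded APs.

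The bHLH repressor gene Bhlhe40, whose product DEC1 binds E-boxes and opposes the CLOCK and BMAL1 heterodimer, stood at 86.2 FPKM in wound bed APs and 7.94 FPKM in nonwounded APs. This was a log2 fold change of 3.44 with an adjusted p of 0.000882 from the authors' deposited table, larger than that of any of the 10 core genes. Bhlhe40 is also known as a gene induced by low oxygen and by growth factors. Its paralog Bhlhe41 stayed under 1 FPKM in both groups for its major isoform, at 0.804 in wound bed APs and 0.852 in nonwounded APs. Arntl2, the paralog of Arntl, stood at 1.35 FPKM in wound bed APs and 2.89 FPKM in nonwounded APs and was not called (adjusted p = 0.354 from the authors' deposited table).

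NFIL3 binds the same D-box elements as DBP, TEF and HLF and represses where they activate. Nfil3 stood at 60.4 FPKM in wound bed APs and 26.9 FPKM in nonwounded APs and was called, with a log2 fold change of 1.17 (adjusted p = 0.00239 from the authors' deposited table). Hlf, the third PAR bZIP gene, stood at 0.103 FPKM in wound bed APs and 0.908 FPKM in nonwounded APs, under the level at which genes were counted (adjusted p = 0.0733 from the authors' deposited table). Over the isoform sums, Nfil3 amounted to 7.21 times the total of Dbp, Tef and Hlf in wound bed APs and 1.06 times in nonwounded APs. The ratio is a description and was not tested.

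Kinases, ligases and other modifiers set the stability of PER, CRY and REV-ERB proteins, and of 12 counted genes 1 was called higher and none lower, against 7.39% higher and 8.7% lower over all genes. Sirt1, a deacetylase gene, stood at 6.27 FPKM in wound bed APs and 1.62 FPKM in nonwounded APs for its major isoform. This was a log2 fold change of 1.96 with a p of 0.0468 in the authors' deposited table, without a call. The sum over its isoforms gave 1.47. Siah2, a ubiquitin ligase gene that also acts in the response to low oxygen, stood at 10.2 FPKM in wound bed APs and 2.40 FPKM in nonwounded APs, a log2 fold change of 2.08 (adjusted p = 0.00663 from the authors' deposited table). Csnk1d, which encodes the casein kinase 1 delta that phosphorylates PER proteins, stood at 29.9 FPKM in wound bed APs and 27.8 FPKM in nonwounded APs. The casein kinase 2 genes Csnk2b and Csnk2a1 had log2 fold changes of -0.07 and -0.38, and none of these kinase genes was called.

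Of 4 partners of the PER complex none was called by the adjusted p, beside 16.1% over all genes. None of them had an unadjusted p under 0.05 in the authors' deposited table. Sfpq and Wdr5 had log2 fold changes of 0.02 and -0.07. Nono had -1.18 for its major isoform but -0.14 for the sum of its isoforms. Of 6 clock outputs, Cdkn1a rose and Tsc22d3 fell, beside 7.39% called higher and 8.7% called lower over all genes. Cdkn1a, the gene of the cell cycle inhibitor p21, stood at 67.4 FPKM in wound bed APs and 19.4 FPKM in nonwounded APs, a log2 fold change of 1.80. Tsc22d3, a glucocorticoid-induced gene that is rhythmic in many organs, stood at 6.35 FPKM in wound bed APs and 113 FPKM in nonwounded APs, a log2 fold change of -4.15 that the sum over its isoforms put at -2.86. Tspan4, Por and Nampt had log2 fold changes of -0.62, 0.02 and 0.28 and were not called.

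**Figure D4:**
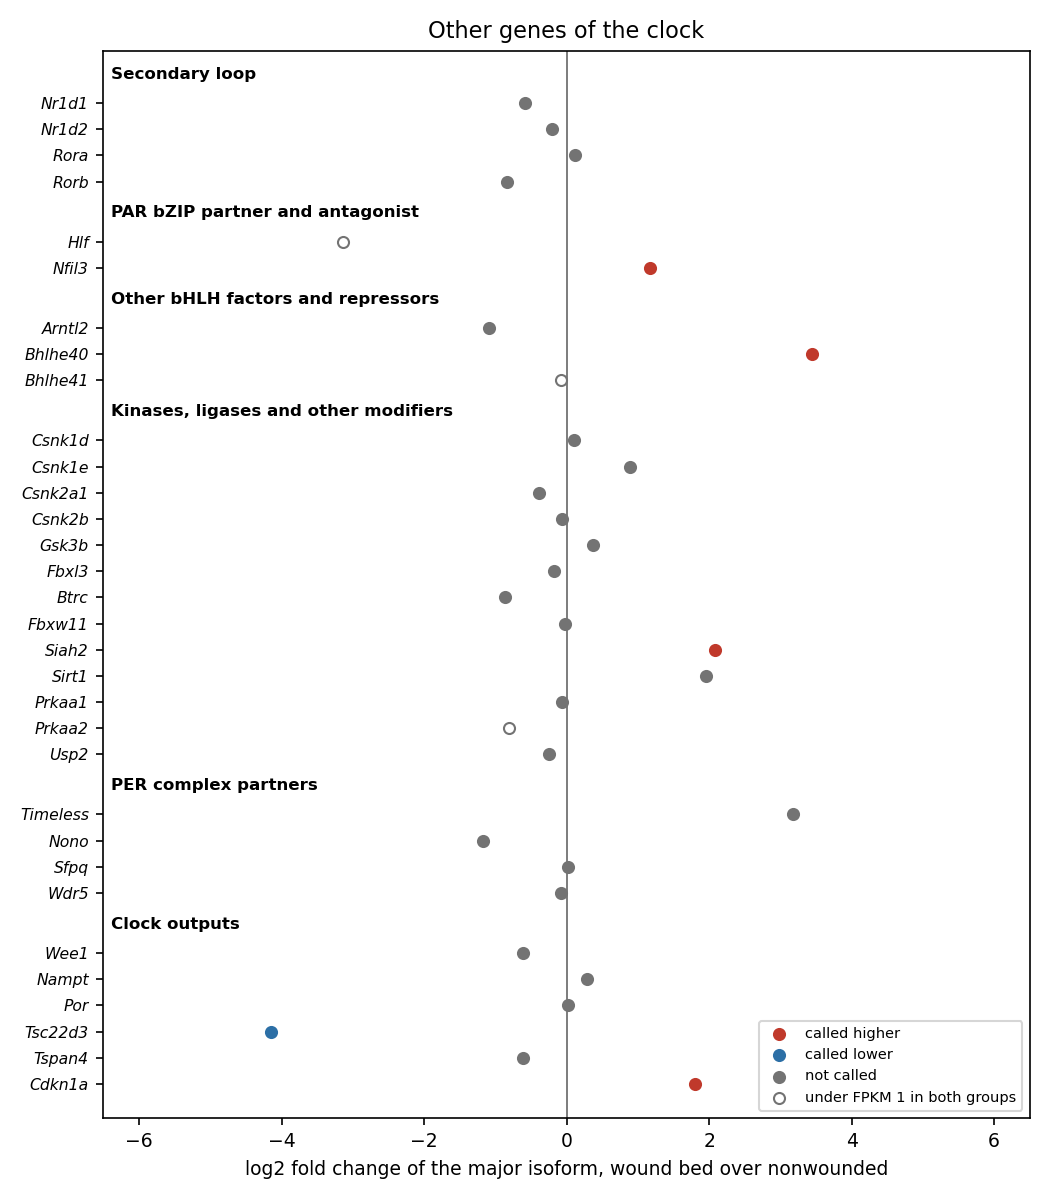
Log2 fold change of the major isoform, wound bed over nonwounded (horizontal axis), of the further clock genes with a tested isoform, by list (rows), with red points for genes called higher, blue for the gene called lower, grey for those not called and open points for those under 1 FPKM in both groups. Bhlhe40 (3.44), Siah2 (2.08), Cdkn1a (1.80) and Nfil3 (1.17) lie to the right, Tsc22d3 (-4.15) to the left, and the genes of the secondary loop lie between -0.84 and 0.12.

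The sorted cells expressed Pdgfra (81.2 FPKM in wound bed APs and 78.8 FPKM in nonwounded APs), and all 7 AP markers were above 0 in both groups, with 1 of them, Cd24a, called lower. The 7 summed to 2597 FPKM in wound bed APs and 4049 FPKM in nonwounded APs, and most of this sum was Ly6a and Cd34. The log2 fold changes of Cd34, Ly6a, Itgb1 and Pdgfrb were -0.64, -0.48, 0.74 and 0.60 without a call. Dlk1 had 1.01 for its major isoform but -0.33 for the sum of its isoforms, without a call. By major isoform 3 of the 7 values were below 0 and 4 above, with a median of 0.04. Markers of other cells differed between the groups. Beside all these marker counts, 7.39% of all major isoforms that reached 1 FPKM were called higher and 8.7% lower. Of 8 macrophage markers 6 were called higher and none lower, with a summed level of 693 FPKM in wound bed APs and 221 FPKM in nonwounded APs, and none was at 0. Of 3 neutrophil markers in the table, 2 were counted and none was called by the adjusted p, with sums of 97.8 FPKM in wound bed APs and 1.80 FPKM in nonwounded APs. The S100a8 gene had a p of 0.0292 in the authors' deposited table. Erythroid markers were called lower in 4 of 4 cases (176 FPKM in wound bed APs and 3045 FPKM in nonwounded APs) and mast cell markers in 4 of 4 (6.24 FPKM in wound bed APs and 59.0 FPKM in nonwounded APs). Muscle markers were called lower in 1 of 3 cases, with all 3 values below 0 (4.23 FPKM in wound bed APs and 59.3 FPKM in nonwounded APs), and mature adipocyte markers likewise in 1 of 3, with all 3 values below 0 (2.26 FPKM in wound bed APs and 25.0 FPKM in nonwounded APs). Keratinocyte markers were called higher in 2 of 4, with all 4 values above 0 (30.9 FPKM in wound bed APs and 13.6 FPKM in nonwounded APs). Endothelial markers were called in 0 of 5 (25.3 FPKM in wound bed APs and 89.7 FPKM in nonwounded APs), with 1 of them, Tek, at an unadjusted p under 0.05 in the authors' deposited table. Without Tek the other 4 summed to 6.94 FPKM in wound bed APs and 6.59 FPKM in nonwounded APs. The log2 fold changes of Pecam1, Cdh5 and Kdr were 1.06, 0.58 and 0.11 without a call. Cldn5 went the other way, at 0.135 FPKM in wound bed APs and 1.04 FPKM in nonwounded APs. Its log2 fold change was -2.94, also without a call. The part of these cells in the clock gene values was not tested, and in bulk RNA fewer cells of a type and less RNA per cell cannot be told apart.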

How the data were processed

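Per the labels' protocols, RNA of the sorted cells was purified with Trizol plus a spin column and TruSeq mRNA libraries were prepared. TopHat2 2.0.2, Cuffdiff 2.0.2 and the build mm9 are named in the submitters' processing notes. The authors deposited an FPKM per isoform and group, pooled over 6 nonwounded and 2 wound bed samples, and an unadjusted p-value of the comparison. No value per sample was used (0 such columns), so no count test was run, depth is unknown and no interval or floor is given.

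The log2 fold change was computed as wound bed over nonwounded FPKM without a pseudocount, and p-values were adjusted by Benjamini-Hochberg over 17775 tested isoforms. This gave the deposited significance call for every isoform, 1006 higher and 1288 lower. The adjustment was tested on simulated data. Values of 15 isoforms with a failed or overloaded status were left out of the isoform sums, and 25 symbols turned into dates by a spreadsheet, none of them a clock gene, were kept as given.

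Locus starts were converted to count from 1. At least 1 end matched the GRCm38 gene to within 100 bases in 93.4% of 17764 loci with 1 gene and in 8 of the 10 clock genes. The others were Clock and Dbp, whose bundles hold other genes. The Cry2 bundle, which matched, also holds another gene. Printed positions come from the table, which matches GRCm38 although the notes name mm9. Isoform starts are from GENCODE M21 and window starts from RefSeq. These can differ, as for the upstream Tef start, the Dbp start and the start of the major Clock isoform.

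The members and lists were chosen with earlier results of these data known. Named genes were all 10 members, all called genes of the wider lists and up to 3 others per list with the highest FPKM sum; Rorb, Sirt1, S100a8 and the markers were named after their values were seen. No gene was named for a similar pattern, since with a value per group every gene correlates perfectly. Python 3.11.15, numpy 2.4.6, pandas 2.3.3 and matplotlib 3.10.9 were used.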

Additional observations from a re-analysis of the deposited data

How the results depend on the processing

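The alternatives were adjusted p thresholds of 0.01 and 0.1, a minimum log2 fold change of 1, no FPKM minimum or a minimum of 5, adjustment over isoforms that reached 1 FPKM, leaving out isoforms at 0, all tested isoforms in place of the major one, sums over isoforms, pseudocounts of 0.1 and 1, and centring. Isoform sums, pseudocounts and centring carry no p and were run for values only. Under the others 3 to 4 of the 10 clock genes were called, 1 higher and 2 to 3 lower. The wider genes were counted at the other adjusted p thresholds and FPKM minimums, with 5 called in each case. Per3 lost its call at an adjusted p under 0.01 and was not counted with an FPKM minimum of 5. Among all tested isoforms, 1465 were called at an adjusted p under 0.01, 642 higher and 823 lower, against 2294 at 0.05. Centring on the median of isoforms that reached 1 FPKM in both groups, -0.11, took the median log2 fold change of the 10 genes to -0.080 and turned Cry1, which was not called, to 0.025. Of 40 single clock gene values under isoform sums, pseudocounts and centring, 39 kept their direction, and of 20 at the other adjusted p thresholds 19 kept their side of the threshold. Leaving out replicates was not run, since the table has a single value per group. No paired analysis was possible because the columns are pooled over the samples of each group and carry no replicate number. Low levels limit several genes: Per3, Dbp and Per2 were under 2 FPKM in wound bed APs, and Per2 and Npas2 were under 2 FPKM in nonwounded APs. With a pseudocount of 1 the log2 fold change of Npas2 was 1.43 and that of Per3 -1.16.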
